A study of Homo sapiens with 11 samples.

Results

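The comparison described here is free estradiol against no treatment in T47D, an established cell line derived from a human breast cancer that carries estrogen receptor alpha and progesterone receptor. It uses 2 of the 11 arrays of the series, the T47D_Estradiol array and the untreated T47D_control array of the same array set, called control 1. The value given for each probe set is the estradiol value minus the control 1 value on the log2 scale, so that a difference of 1 is 2-fold. With 1 array on each side there is no replicate of this comparison, no spread can be given for its values, and no test was made of it.

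In every group, medium with 10% charcoal-stripped serum, which is low in steroids, was applied for 4 h and was also present during the 3 h of treatment. The estradiol array came from cells given 1 µM estradiol in free form, and control 1 came from cells given nothing, sampled 3 h after a change of medium. The other arrays used for reference were E2-BSA, which is estradiol coupled to bovine serum albumin, at 1 µM (2 arrays), albumin alone (BSA) at 1 µM, ethanol at 0.1% (labelled as the vehicle of estradiol) and another untreated array (control 2). The remaining 4 arrays held the receptor antagonists ICI and G15 at 10 µM, each alone and with E2-BSA. Total RNA was measured on Affymetrix arrays of the HG-U133 Plus 2 type.

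The 11 arrays fell into a smaller set (control 1, estradiol and E2-BSA 1) and a larger set of the other 8. Pearson correlations over all probe sets were 0.824 to 0.864 for pairs in the smaller set, 0.16 to 0.466 for pairs in the larger and −0.584 to −0.33 across the sets. For that reason estradiol was compared with control 1, and the ethanol and BSA arrays with control 2. No vehicle array belongs to the smaller set, so estradiol and its vehicle cannot be told apart in this comparison. The deposited values are centred for each probe set, which removes its expression level, so T47D identity and the absence of other cell types could not be read from marker levels. The 38 probe sets for bacterial control transcripts differed by a median of 0.42 (0.00 to 0.89) between estradiol and control 1 and were above 0 in 37, against a median of 0.01 over all 54613 other probe sets. Their part in the results was not tested. The 5′ minus 3′ difference of the control probe sets for ACTB was 0.65 on control 1 and 0.78 on estradiol, and for GAPDH 0.38 and 0.43. Because each probe set was centred, only the shift between arrays can be read from these values, not RNA quality.

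Estradiol is a steroid that enters cells and binds estrogen receptors in the nucleus, chiefly estrogen receptor alpha in breast epithelium. The bound receptor dimerises and attaches to estrogen response elements, inverted repeats of a 5-base arm, or joins DNA through other transcription factors, and recruits coactivators or corepressors. Early targets in luminal breast cancer cells include transcription factors such as MYC, the progesterone receptor and the chemokine CXCL12. Repression of growth-inhibitory and differentiation genes accompanies this induction. Part of estradiol's action also starts at the plasma membrane, through membrane-associated receptors and the G protein-coupled receptor GPER1, and E2-BSA is used to address that part because albumin hinders entry into the cell.

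Several of the highest values were of genes on a list of known estrogen-induced genes. That list was drawn up with earlier results of these data known. Others near the top, such as ADRA2A (2.11), PLCL1 (1.99) and KCTD6 (1.99), were not on it. CXCL12 was higher by 2.96 (7.79-fold), the potassium channel gene KCNK5 by 2.40 (5.27-fold), the Ras activator gene RASGRP1 by 2.39 (5.26-fold) and the transcription factor genes MYC by 2.38 (5.19-fold) and MYB by 2.28 (4.86-fold). The differences in the other direction were smaller, with DENR (−1.34), SHISA2 (−1.29), AMIGO2 (−1.28), SLITRK6 (−1.18) and FLRT3 (−1.11) the lowest of the named genes. In bulk RNA, fewer cells of a kind and less RNA per cell cannot be told apart. Higher differences outnumbered lower ones, with 101 probe sets at 1 or more (0.185% of 54613) and 12 at −1 or less (0.022%). Taking 1 probe set a gene, 63 of 19775 genes (0.319%) were at 1 or more and 10 (0.0506%) at −1 or less. At 1.5-fold these counts were 337 genes higher (1.7%) and 160 lower (0.809%). With control 2, of the other array set, in place of control 1 the probe set counts became 1969 and 1474, and after quantile normalization over all 11 arrays 13 and 0. Just inside the limit lay CDK8 (1.001), RARA (1.008) and PPP4R4 (1.008) and just outside C5AR2 (0.998), UGCG (0.992) and SLITRK4 (0.986). On the lower side these were DUSP6 (−1.02), PLK2 (−1.04) and NR2F1 (−1.05) inside and ACKR3 (−0.95), TDRG1 (−0.94) and TRAM2 (−0.91) outside.

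Promoter sequences of genes that stood higher on estradiol are shown to place the receptor's DNA element beside the values. RefSeq promoters (GRCh38.p14) run from 250 bases before to 50 bases after the annotated start, 5′ to 3′ on the gene's strand. CXCL12, KCNK5, PGR and RARA were printed because they are classical targets with the 5-base arm in this window, and RMST because it alone of the higher genes held a near match to the whole element. Capitals mark the arm, GGTCA or its reverse complement TGACC, and in RMST the 13 bases that differ from GGTCANNNTGACC at 1 position.
CXCL12, chr10:44385048-44385347, minus strand, arm at −208 from the start: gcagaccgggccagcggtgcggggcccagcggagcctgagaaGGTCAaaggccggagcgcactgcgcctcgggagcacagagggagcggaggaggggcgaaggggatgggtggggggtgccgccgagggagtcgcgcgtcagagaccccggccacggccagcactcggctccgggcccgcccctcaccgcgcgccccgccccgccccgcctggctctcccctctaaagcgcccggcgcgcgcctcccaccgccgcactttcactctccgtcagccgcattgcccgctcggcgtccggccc
KCNK5, chr6:39229426-39229725, minus strand, arm at −188: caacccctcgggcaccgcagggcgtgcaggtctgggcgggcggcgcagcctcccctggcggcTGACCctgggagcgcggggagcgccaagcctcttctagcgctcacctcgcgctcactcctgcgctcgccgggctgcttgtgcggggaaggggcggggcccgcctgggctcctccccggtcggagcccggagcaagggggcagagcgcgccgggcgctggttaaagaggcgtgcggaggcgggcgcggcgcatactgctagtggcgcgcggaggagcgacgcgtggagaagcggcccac
PGR, chr11:101129028-101129327, minus strand, arm at −166: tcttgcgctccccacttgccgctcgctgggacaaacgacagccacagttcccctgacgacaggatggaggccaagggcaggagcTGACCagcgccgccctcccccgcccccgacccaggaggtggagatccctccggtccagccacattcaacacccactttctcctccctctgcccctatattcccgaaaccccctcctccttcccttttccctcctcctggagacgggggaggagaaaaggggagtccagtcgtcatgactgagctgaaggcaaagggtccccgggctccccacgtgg
RARA, chr17:40308930-40309229, plus strand, arms at −229, −159 and −92: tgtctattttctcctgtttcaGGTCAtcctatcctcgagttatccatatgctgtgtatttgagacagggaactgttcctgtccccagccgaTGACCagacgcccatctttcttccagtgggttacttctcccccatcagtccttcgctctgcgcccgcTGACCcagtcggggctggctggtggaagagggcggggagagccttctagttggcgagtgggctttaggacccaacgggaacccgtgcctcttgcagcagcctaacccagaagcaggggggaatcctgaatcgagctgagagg
RMST, chr12:97464441-97464740, plus strand, near match at 22 after the start: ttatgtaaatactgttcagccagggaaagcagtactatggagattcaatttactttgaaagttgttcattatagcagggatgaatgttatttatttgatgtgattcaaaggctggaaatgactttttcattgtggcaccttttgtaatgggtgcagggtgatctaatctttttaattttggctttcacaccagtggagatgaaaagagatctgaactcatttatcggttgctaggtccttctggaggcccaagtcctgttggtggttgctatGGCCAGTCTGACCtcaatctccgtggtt

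The arm was common. It was found on either strand in 10307 of all 27305 promoters in the table (37.7%) and in 35.5% of those of genes on the array. Of the 63 higher genes 49 had a promoter entry and 22 of these (44.9%) held the arm, as did 1 of the 10 lower genes (10.0%), all of which had an entry. The full element GGTCANNNTGACC occurred in 18 of all promoters (0.0659%) and in none of the 49 or the 10. A best match with exactly 1 mismatch occurred in 218 of all promoters (0.798%) and in RMST alone among the 49. The arm is part of the full element, so these counts overlap, and a match describes only the letters of this window.

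**Figure D1:**
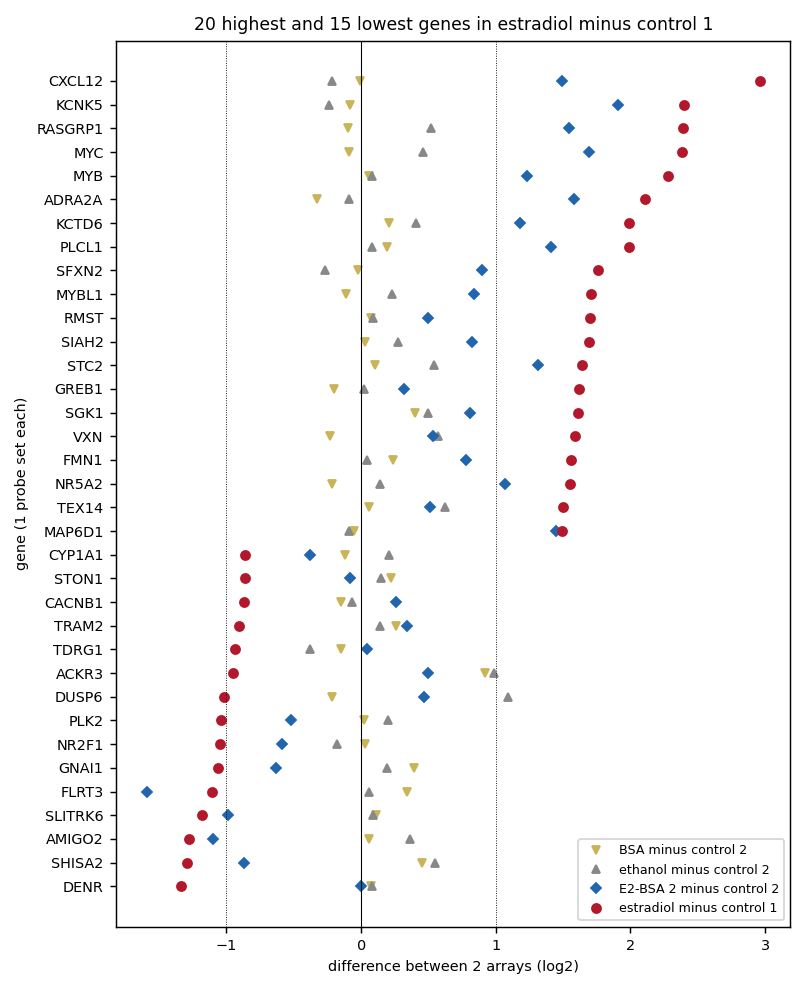
Difference between 2 arrays (log2, horizontal axis) for the 20 genes highest and the 15 lowest in estradiol minus control 1 after uncharacterised loci, host genes, antisense and small RNAs were passed over (LINC01016 at 2.01 and MIR9-3HG at −1.14 among them), 1 probe set each. Red circles are estradiol minus control 1, blue diamonds E2-BSA 2 minus control 2, grey triangles ethanol minus control 2 and sand triangles BSA minus control 2, each from 1 array a side. CXCL12 lies at 2.96 and DENR at −1.34, and for all 20 upper genes the blue diamonds lie above 0. Each gene's probe set was chosen by its spread over the larger set, which holds E2-BSA 2 and control 2. The choice therefore favours large differences there.

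The chemokine CXCL12, ligand of the receptors CXCR4 and ACKR3, had the highest value of all genes. Its centred value was −1.65 on control 1, 1.31 on estradiol and 1.17 on E2-BSA 1. In the larger set it was 0.00 on control 2, −0.22 on ethanol, 0.00 on BSA, −0.78 on ICI and −0.01 on G15, and 1.5 on E2-BSA 2, 0.69 with E2-BSA and ICI and 1.5 with E2-BSA and G15. Every array with hormone was above every array without it. A second CXCL12 probe set gave 1.55. The receptor genes were at −0.15 (CXCR4) and −0.95 (ACKR3), the latter on 1 of 3 probe sets, the others at −0.08 and 0.00. For ACKR3 E2-BSA 2 minus control 2 was 0.50, and the ethanol and BSA arrays also exceeded control 2, by 0.99 and 0.92. Of the 13 chemokine and receptor genes measured, CXCL12 alone passed 1 (0.319% of all genes were higher by this) and the list's median was −0.04.

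Among transcription factors, MYC, which drives growth and ribosome production, was −0.67 on control 1, 1.71 on estradiol and 1.88 on E2-BSA 1. Its value in the larger set was −0.93 on control 2, −2.80 to −0.47 over the 5 arrays without hormone and −0.93 to 0.77 over the 3 with E2-BSA, so the groups overlapped there. In matched pairs MYC was −2.80 on ICI and −0.93 with E2-BSA and ICI, and −1.24 on G15 and 0.47 with E2-BSA and G15. On E2-BSA 2 it was 0.77, so E2-BSA stood higher in each pair. MYB, a progenitor-type transcription factor, was −1.92 on control 1, 0.36 on estradiol and 0.19 on E2-BSA 1, and its second probe set differed by 0.37. Its relative MYBL1 was higher by 1.71, from −0.68 to 1.03, with 0.12 and 0.23 for 2 further probe sets. NR5A2, an orphan nuclear receptor also called LRH-1, was higher by 1.55, and all 4 of its probe sets were higher (0.25 to 1.40 for the others). GATA4 was higher by 1.24 and RUNX2 by 1.22, but each rested on 1 of several probe sets. The other 4 GATA4 probe sets ranged from −0.39 to 0.07 and the other 5 RUNX2 probe sets from −0.28 to 0.15. The Notch-pathway repressor HEY2 was higher by 1.31 with 1.57 for its second probe set. HEY2 was outside the naming rule and was chosen after its values were seen, as were NPY1R, LINC01016, MIR9-3HG, MPPED2, PKIB and some list members given below.

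Genes of nuclear receptors and their cofactors differed unevenly. The progesterone receptor gene PGR was −0.21 on control 1, 1.10 on estradiol and 1.0 on E2-BSA 1, a difference of 1.31 (2.48-fold), and its second probe set gave 0.67. The 3 E2-BSA arrays of the larger set (−0.02 to 0.20) lay above the 5 without hormone (−0.62 to −0.30). The retinoic acid receptor gene RARA was higher by 1.01, from −0.51 to 0.50, while its other 4 probe sets ranged from −0.29 to 0.64. NR2F1, the orphan receptor COUP-TFI, was lower by 1.05, from 0.79 to −0.27. The estrogen receptor genes themselves lay nearer 0, with ESR1 at −0.06 (its other 8 probe sets −0.46 to 0.33), ESR2 at −0.42 (its other 5 −0.17 to 0.17) and GPER1 at −0.26 (its second probe set 0.42). Among 9 steroid receptor genes measured, PGR alone was higher by 1 or more, against 0.319% of all genes.

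Of 22 cofactor and pioneer factor genes, 3 were higher by 1 or more, against 0.319% of all genes. NRIP1, a ligand-dependent corepressor, was higher by 1.12 with 0.98 for its second probe set. CITED1, a coactivator of the estrogen receptor, was higher by 1.03, from −1.04 on control 1 to −0.01. BRIP1, a DNA helicase that binds BRCA1, was higher by 1.21, with 0.11 for its second probe set, and E2-BSA 1 (1.07) differed from control 1 (1.06) by 0.02 before rounding. The pioneer factor genes FOXA1 and GATA3 were at −0.18 and −0.30. GREB1, a receptor cofactor and early target, was higher by 1.62, from −0.14 to 1.48, with 0.36 and 1.11 for its other probe sets. GREB1 in the larger set was −0.67 to −0.15 without hormone and −0.16 to 0.53 with E2-BSA, so the groups overlapped there. E2-BSA stood higher in each matched pair. GREB1 was −0.18 on control 2 and 0.14 on E2-BSA 2, and −0.15 on ICI and 0.53 with E2-BSA and ICI. It was −0.67 on G15 and −0.16 with E2-BSA and G15.

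KCNK5, which encodes a tandem-pore potassium channel, was −0.69 on control 1, 1.70 on estradiol and 1.60 on E2-BSA 1. In the larger set it was 0.26 to 1.42 with E2-BSA and −0.96 to 0.03 without, with no overlap. KCNK6, of the same family, was higher by 0.85, and the median of the 14 family genes measured was 0.04. ADRA2A, the alpha-2A adrenergic receptor that couples to inhibitory G proteins, was higher by 2.11, from −0.65 to 1.46. The beta-1 receptor gene ADRB1 was higher by 1.14, on 1 of 3 probe sets (the others −0.26 and 0.04). In the larger set ADRB1 was −0.11 on control 2 and 0.68 on E2-BSA 2. It was −0.09 on ICI and −0.26 with E2-BSA and ICI, and −0.47 on G15 and −0.46 with E2-BSA and G15. PLCL1, an inactive phospholipase C relative, was higher by 1.99, with 0.10 for its second probe set. GNAI1, the inhibitory G protein subunit, was lower by 1.06, from 0.08 to −0.98, with −0.17 for its second probe set. NPY1R, a neuropeptide Y receptor that also couples to inhibitory G proteins, was higher by 1.02. Of 22 adrenergic and inhibitory G protein pathway genes, 3 were higher and 1 lower by 1 or more (0.319% and 0.0506% of all genes), 18 were above 0 (51.9% of all genes) and the median was 0.16.

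RASGRP1, an exchange factor that loads Ras with GTP in response to diacylglycerol, was −0.41 on control 1, 1.99 on estradiol and 2.35 on E2-BSA 1. Its values in the larger set with E2-BSA (0.62 to 1.09) lay above those without (−0.55 to 0.07). RAPGEFL1, of a related exchange factor family, was higher by 1.20, and the median of the 21 Ras and small G protein regulators was 0.01. Growth factor genes past 1 were TGFA (1.14), a ligand of the EGF receptor, and RET (1.02), the receptor kinase for GDNF-family ligands. TGFA rested on 1 of 3 probe sets, the others at −0.39 and 0.22, and RET on 1 of 3, the others at 0.00 and 0.06. JAK1, a cytokine receptor kinase, was higher by 1.13 with all 5 probe sets above 0 (the others 0.02 to 0.89). The transcriptional repressor gene BCL6 was higher by 1.01, with 0.65 and 0.69 for its other probe sets, although it stood on the list of estrogen-repressed genes.

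Further genes covered varied functions. SIAH2, a ubiquitin ligase, was higher by 1.69, and the secreted glycoprotein genes STC2 and STC1 by 1.64 and 1.46. For STC2 the second probe set gave 0.83, and for STC1 the others gave 0.71 and 1.35. KCTD6, an adaptor of a ubiquitin ligase, was higher by 1.99, with 1.64 for its second probe set. SGK1, a kinase that regulates ion transport, was higher by 1.61 and SFXN2, a mitochondrial carrier, by 1.76 (its second probe set 0.39). FMN1, an actin nucleator, was higher by 1.56, with 0.36 and 0.63 for its other probe sets. MAP6D1, a microtubule-stabilising protein, was higher by 1.49, the others −0.24 and 0.48. The long noncoding RNA RMST (1.70, other probe sets −0.02 and 0.13) and TEX14 (1.5), known from germ cell bridges, were also high. VXN was higher by 1.59, with −0.17 and 1.14 for its other probe sets. MPPED2 was higher by 1.48, with −0.08 for its second probe set. The noncoding RNA LINC01016 was higher by 2.01, on 1 of its 4 probe sets, the others −0.11 to 0.92.

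The control arrays bear on several of these values. RMST was −1.73 on control 1, −0.02 on estradiol and 0.02 on control 2, and TEX14 was −1.54, −0.04 and 0.35. RAPGEFL1 was −1.39, −0.19 and 0.13, and CITED1 −1.04, −0.01 and 0.04. For these 4 genes the estradiol array lay below control 2, and control 1 was the lowest of the 11 arrays. With control 2 in place of control 1 their differences were −0.05, −0.39, −0.32 and −0.05. Control 2 is of the other array set, so these values also hold any difference between the sets. Within the larger set RMST was 0.45 to 0.79 with E2-BSA and −0.35 to 0.12 without hormone. RAPGEFL1 was 0.76 to 1.07 against −0.01 to 0.13, and CITED1 0.40 to 0.97 against −0.07 to 0.07. TEX14 overlapped there, with 0.69 to 1.46 against −0.01 to 0.98. Among the lower genes FLRT3 and DENR also changed sign with control 2 in place, to 0.56 and 0.20. FLRT3 was 1.36 on control 1, 0.25 on estradiol and 0.30 on E2-BSA 1, all above the larger set (−1.90 to 0.03). CXCL12, MYB and SFXN2 kept their sign but came to 1.30, 0.43 and 0.18 with control 2 in place.

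**Figure D2:**
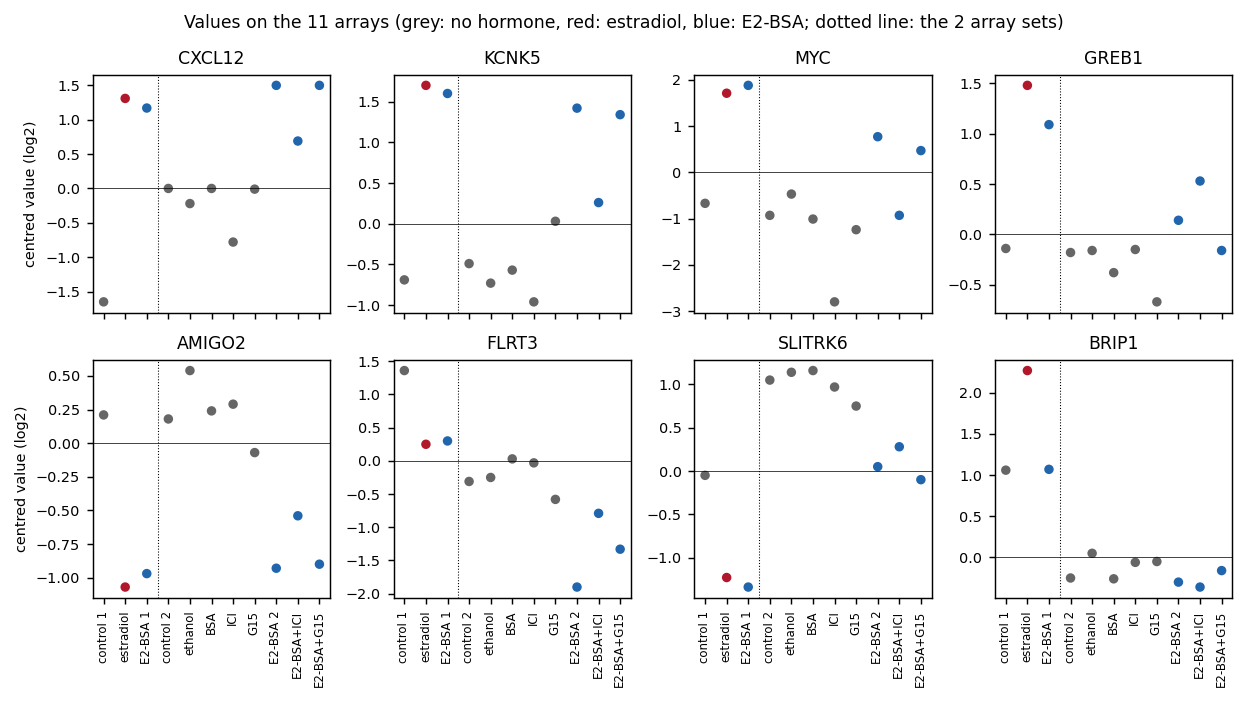
Centred log2 value (vertical axis) on each of the 11 arrays for CXCL12, KCNK5, MYC, GREB1, AMIGO2, FLRT3, SLITRK6 and BRIP1, 1 probe set each. Grey points had no hormone, red is estradiol and blue had E2-BSA, and the dotted line parts the smaller set (left) from the larger. CXCL12 and KCNK5 were higher on all arrays with hormone and AMIGO2 lower, while BRIP1 was 2.27 on estradiol against 1.07 on E2-BSA 1.

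The lower genes were fewer and nearer to the limit. AMIGO2, a leucine-rich repeat adhesion protein, was 0.21 on control 1, −1.07 on estradiol and −0.97 on E2-BSA 1. In the larger set it was −0.93 to −0.54 with E2-BSA and −0.07 to 0.54 without, with no overlap. SLITRK6, of a neuronal leucine-rich repeat family, was −0.05 on control 1 and −1.23 on estradiol, and its other probe sets gave −0.82 and −0.79. FLRT3, a leucine-rich repeat ligand of adhesion receptors, was 1.36 on control 1 and 0.25 on estradiol, with −0.45 for its second probe set. Both were lower on the 3 E2-BSA arrays of the larger set than on its 5 other arrays. Of the 22 leucine-rich repeat genes measured 3 were lower and 1, TPBG (1.30), higher by 1 or more, against 0.0506% and 0.319% of all genes, and the list's median was −0.10. SHISA2, which retains Wnt and FGF receptors in the endoplasmic reticulum, was 0.82 on control 1 and −0.47 on estradiol. PLK2, a stress-responsive polo-like kinase, was lower by 1.04.

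DENR, a factor in translation re-initiation, had the lowest value, −1.34. It rested on 1 of 5 probe sets, the others ranging from −0.06 to 0.43. DENR was 1.33 on control 1, −0.01 on estradiol and 0.01 on E2-BSA 1, and −0.45 to 0.08 in the larger set, so control 1 stood apart from the other 10 arrays. DUSP6, the phosphatase of ERK, was lower by 1.02, and its other probe sets gave −0.63 and −0.48. DUSP6 in the larger set ran from −1.45 to 1.28 without hormone, and E2-BSA 2 minus control 2 was 0.47. The genes next in order were ACKR3 (−0.95), TDRG1 (−0.94), TRAM2 (−0.91), CACNB1 (−0.87), STON1 (−0.86) and CYP1A1 (−0.86), the last a monooxygenase of the aryl hydrocarbon receptor pathway.

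The list of known estrogen-induced genes had the highest median of the 35 lists. It was drawn up with earlier results of these data known, so its direction is not independent evidence. Of 51 listed, 48 were measured. Of these 16 were higher by 1 or more and none lower, against 0.319% and 0.0506% of all genes. By 1.5-fold 25 were higher and 1 lower, against 1.7% and 0.809%, and 46 were above 0, against 51.9%. Their median was 0.63, beside 0.01 over all genes. The 16 were CXCL12, KCNK5, RASGRP1, MYC, MYB, MYBL1, SIAH2, STC2, GREB1, PGR, TPBG, RAPGEFL1, PKIB (1.19), NRIP1, RET and RARA. Those between 1.5-fold and 2-fold included CISH, a cytokine signalling suppressor (0.78), FKBP4, a steroid receptor chaperone (0.75), IGFBP4, a growth factor binding protein (0.72), and EGR3, an early growth response factor (0.64). The exception below −1.5-fold was the homeobox gene DLX2 (−0.72), for which ethanol minus control 2 was 0.91.

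Some well-known targets had small differences at 3 h. TFF1, a secreted trefoil peptide and a common marker of estrogen action, was −2.46 on control 1, −2.20 on estradiol and −2.45 on E2-BSA 1, against −0.02 to 0.92 in the larger set. Its difference was 0.26, and the smaller set as a whole lay below the larger. Cyclin D1, CCND1, was higher by 0.30 and FOS by 0.27. Further listed targets were CTSD (0.11), PDZK1 (0.11), CA12 (0.12), IRS1 (0.18) and XBP1 (0.04).

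The 24 measured genes of 25 listed as estrogen-repressed had a median of −0.18, with 8 above 0, against 51.9% of all genes. Of these NR2F1 was lower and BCL6 higher by 1 or more, against 0.0506% and 0.319% of all genes. By 1.5-fold 5 were lower and 1 higher, against 0.809% and 1.7%. The 5 were NR2F1, CYP1A1 (−0.86), the BMP pseudoreceptor gene BAMBI (−0.77), IL1R1 (−0.75), the interleukin-1 receptor, and CCNG2 (−0.68), an atypical cyclin of growth arrest. Genes of BMP and TGF-beta feedback had a median of −0.10 over 18, with ID2 at −0.73 and BMPER at 0.95. Among 14 Wnt feedback genes 3 were above 0, against 51.9% of all genes, and the secreted inhibitor gene DKK1 was lowest at −0.83.

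Immediate early and growth programmes gave mixed values. The 25 immediate early genes had a median of 0.05 and MYC alone passed 1 (0.319% of all genes were higher by this). IER3 was next at 0.87, while EGR1 (−0.50) and KLF2 (−0.67) were lower. None of the 20 ERK feedback genes was higher by 1, and DUSP6 was lower, where 0.319% and 0.0506% of all genes were. None of the 21 G1 cyclin, kinase and inhibitor genes passed 1.5-fold higher or lower (1.7% and 0.809% of all genes). Their median was 0.06. The DNA replication genes had a median of 0.14 with 22 of 27 above 0, against 51.9% of all genes, and RRM1, a ribonucleotide reductase subunit, was highest at 0.57. Mitosis genes had a median of 0.00 over 25. Ribosome biogenesis genes had a median of 0.19 with 26 of 31 above 0, beside the same 51.9%, and those past 1.5-fold were POLR1B (0.71), an RNA polymerase I subunit, and WDR43 (0.60), with HEATR1 at 0.56.

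Of 20 hypoxia-type genes STC2 and STC1 were higher by 1 or more, against 0.319% of all genes. The glycolytic regulator gene PFKFB3 was at 0.95 and ADM, a vasodilator peptide gene, at 0.75, and the list's median was 0.19. The 23 interferon-stimulated genes had a median of 0.13 and none passed 1 (0.319% of all genes higher, 0.0506% lower). IFIH1 (0.80) and OAS2 (0.62) were highest. The NF-kB targets had a median of 0.02 over 18, the stress and unfolded protein response genes 0.15 over 22 and the BCL2 family 0.05 over 16. Amino acid carriers and MYC-type metabolic genes had a median of 0.04 over 22, the FOXO-type genes 0.00 over 22, and the CCN and YAP targets 0.01 over 18. The retinoid list had a median of 0.00 over 16 and the RUNX, GATA and MAF factors 0.04 over 17. The growth factor list had a median of 0.10 over 29, the JAK-STAT list 0.10 over 21, and nuclear-retained transcripts 0.10 over 20.

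Luminal epithelial markers had a median of 0.08 over 16, PGR (1.31) and CDH1 (0.88) being highest and KRT8 (0.26) and KRT18 (0.12) nearer 0. The second CDH1 probe set gave −0.04. Basal markers had a median of −0.15 over 9, fibroblast markers −0.06 over 12, leukocyte markers −0.21 over 11 (2 above 0, against 51.9% of all genes) and endothelial markers −0.02 over 9. None of these 4 lists had a gene past 1 (0.319% of all genes higher, 0.0506% lower), and fibroblast LUM was lowest at −0.82.

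**Figure D3:**
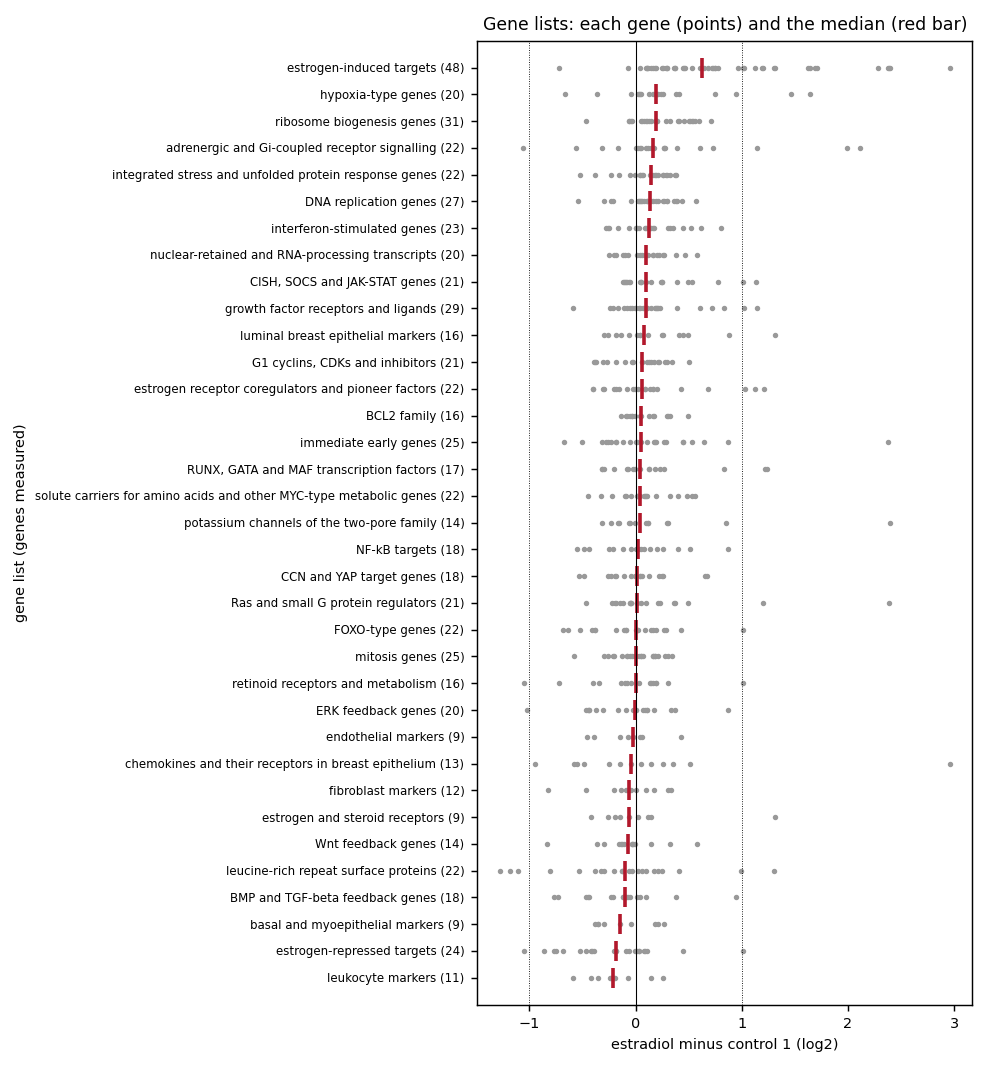
Estradiol minus control 1 (log2, horizontal axis) for every measured gene of the 35 gene lists, 1 point a gene, with the number measured in brackets and the median as a red bar. The estrogen-induced list has the highest median, 0.63, and the leukocyte markers the lowest, −0.21, and the other medians lie between −0.18 and 0.19.

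A comparison made with no array in common is E2-BSA 2 minus control 2, in the larger set. There 41 probe sets were higher by 1 or more (0.0751%) and 14 lower (0.0256%), in a set whose arrays had the smaller spread. Of the 101 probe sets higher with estradiol, 98 were above 0 with E2-BSA 2, where 49.0% of all probe sets were, and their median was 0.77 (−0.16 to 1.91). The overlap past 1 was 27 probe sets, which is 26.7% of the 101 and 65.9% of the 41. Of the 12 lower probe sets 11 were below 0 and 1 was above, where 49.0% of all probe sets were above 0. The median of the 12 was −0.63 (−1.59 to 0.47), and 2 passed −1, which is 16.7% of the 12 and 14.3% of the 14. KCNK5 (1.91), MYC (1.69), ADRA2A (1.58), RASGRP1 (1.54) and CXCL12 (1.49) were high in both. FLRT3 (−1.59) and AMIGO2 (−1.10) were low in both. Gene values, unlike the probe set counts, are of probe sets chosen by their spread over the larger set, E2-BSA 2 included. RET (1.45), EGR3 (1.40) and CCND1 (1.0) had larger values with E2-BSA 2 than with estradiol, and GREB1 (0.32), PGR (0.58) and RMST (0.50) smaller ones. Over all 54613 probe sets the Pearson correlation of the pair of differences was 0.10.

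Over the larger set as a whole, 65 of the 101 higher probe sets (64.4%) had all 3 E2-BSA arrays above all 5 arrays without hormone, against 3.16% of all probe sets. For the 12 lower ones 6 (50%) had all 3 below, against 3.63% of all probe sets. Those that did not separate included MYC, where the array with E2-BSA and ICI lay at −0.93 and ICI alone at −2.80. Another was BRIP1, where E2-BSA gave −0.36 to −0.16 and the other arrays −0.26 to 0.05.

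The same measure was taken between arrays of the larger set without hormone. Its SD over all probe sets was 0.212 with ethanol and 0.185 with BSA, against 0.243 for estradiol minus control 1. Single arrays had an SD of 0.161 to 0.194 in the larger set and 0.405 to 0.42 in the smaller. Counts at the same limit therefore come from sets of unlike spread, and the smaller set has no pair of arrays without hormone. Ethanol minus control 2 had 91 probe sets higher by 1 or more (0.167%) and 19 lower (0.0348%), and BSA minus control 2 had 0 higher (0%) and 42 lower (0.0769%). None of the 101 probe sets higher with estradiol was higher by 1 or more with ethanol and 1 was lower by 1 or more. With 0.167% and 0.0348% of all probe sets past these limits, such counts say little about the 101. The median of the 101 was 0.05 (−1.01 to 0.90) with ethanol and 0.01 (−0.74 to 0.51) with BSA. For the 12 lower probe sets the medians were 0.14 with ethanol and 0.05 with BSA. The genes highest with ethanol were stress and inflammatory genes. MAFF, a small MAF factor, was higher by 4.89 with ethanol, 0.83 with estradiol and 2.23 with E2-BSA 2. CHAC1, a glutathione-degrading stress enzyme (3.84), ATF3, a stress transcription factor (3.39), TNFAIP3, an NF-kB inhibitor (3.26), CXCL2 (3.19) and CCL20 (2.90) had −0.01, 0.29, −0.12, 0.26 and −0.25 with estradiol. The estrogen-induced list had a median of −0.01 with ethanol, and the NF-kB list 1.07. The Pearson correlations of the estradiol difference with those of ethanol and BSA over all probe sets were 0.055 and 0.0056.

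**Figure D4:**
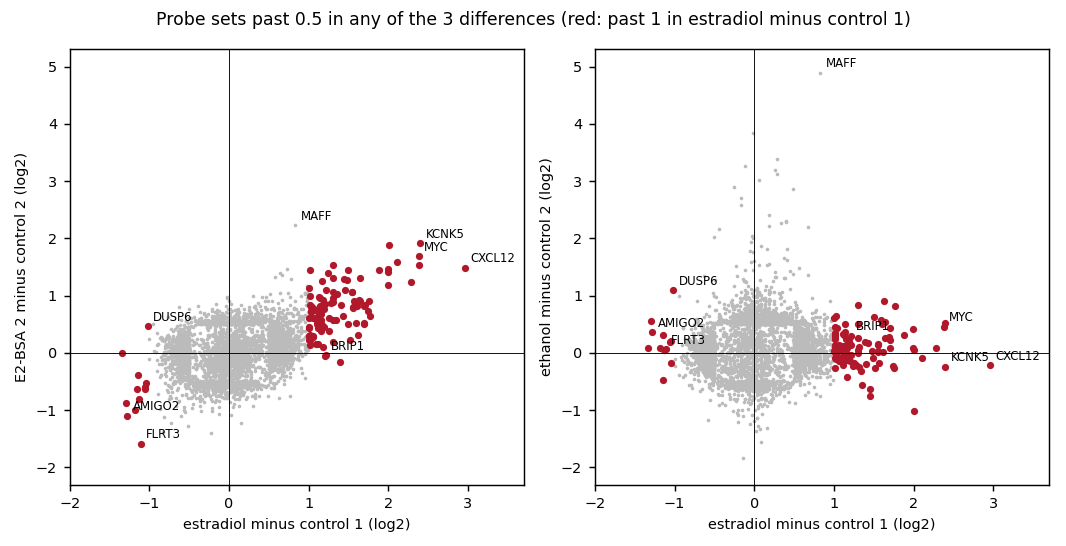
Probe sets past 0.5 in any of 3 differences, with estradiol minus control 1 (log2) on the horizontal axes and E2-BSA 2 minus control 2 (left) and ethanol minus control 2 (right), both log2, on the vertical axes. Red points are the 101 probe sets at 1 or more and the 12 at −1 or less with estradiol. Red points on the right of the left panel lie mostly above 0, with a median of 0.77, and those of the right panel spread around 0.05.

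Free and albumin-coupled hormone were also set side by side at the same nominal dose of 1 µM and the same 3 h, as 1 pair of arrays of the smaller set with no test. The amount of hormone per albumin molecule was not given in the sources used here. In estradiol minus E2-BSA 1, 9 probe sets were higher by 1 or more (0.0165%) and 3 lower (0.00549%). Over the 101 probe sets higher with estradiol the median of this difference was 0.06 (−0.50 to 1.19). The estradiol and E2-BSA 1 values share control 1, and E2-BSA 1 minus control 1 was 2.82 for CXCL12, 2.29 for KCNK5 and 2.75 for RASGRP1. Genes past 1 were the interferon-stimulated gene IFIT1 (1.33, with 0.45 on estradiol and −0.88 on E2-BSA 1 against control 1), BRIP1 (1.19), TSC22D4 (1.05), REV3L (1.05) and TMED10 (1.03), and in the other direction MZT1 (−1.20) and FOLR2 (−1.13). These were chosen after their values were seen. No interval can be given for any of these differences.

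Agreement between probe sets of a gene was limited. Of the 63 higher genes 46 had several probe sets, of which 27 had all in 1 direction and 9 had 2 or more past 1, and 17 had 1 probe set. Of the 10 lower genes 6 had several, of which 5 had all in 1 direction and none had 2 past −1. Probe sets of a gene can read different transcripts and were not averaged. By the platform's annotation the 101 higher probe sets covered 74 genes, with 17 probe sets of no or several symbols, and the 12 lower ones covered 11 genes.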

How the data were processed

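The values analysed are the log2 values deposited by the authors, 1 for each of 54675 probe sets on 11 HG-U133 Plus 2 arrays. Total RNA was labelled and hybridised by the Affymetrix protocol, per the labels' protocols. The summarisation and normalization method and the log base are not given in the sources used here. Their size and spread led to the log2 reading. The authors had centred each probe set, and array medians lie within 0.0105 of 0. The spread (SD over probe sets) is 0.405 to 0.42 on the 3 arrays of the smaller set and 0.161 to 0.194 on the others. Centring removes expression level, so no filter on low signal could be applied, and the number of arrays limits the precision.

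The 62 control probe sets were left out, leaving 54613, of which 41091 had 1 gene symbol in the platform annotation, 1801 several and 11721 none. For 41037 probe sets with 1 symbol the gene ID was found in the RefSeq table and its symbol was used, changed or not. Genes (19775) were represented by 1 probe set each, that of largest SD among the 8 larger-set arrays. Differences are array minus array, counted at a log2 difference of 1, with no test, in Python 3.11.15 with numpy 2.4.6 and pandas 2.3.3, on code tested on simulated data. Named genes were the 20 highest and the 15 lowest, up to 4 members of each of 35 gene lists with the largest absolute value, with FOS, CCND1, EGR3, MYC, GREB1, TFF1, PGR, GPER1, ESR2 and ESR1 always. Loci without a characterised product, host genes, antisense RNAs and small RNAs were passed over in taking the 20 highest and the 15 lowest. LINC01016 and MIR9-3HG, which are of these kinds, are given outside this rule. The comparison, lists and rules were chosen with earlier results of these data known. Other normalizations, controls, folds and probe set choices were tried.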

Additional observations from a re-analysis of the deposited data

How the results depend on the processing

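No paired analysis was possible because estradiol has 1 array. The choice of control moved the counts most. The 101 higher and 12 lower probe sets became 1969 and 1474 with control 2 in place of control 1, 475 and 55 with the mean of both controls, and 1793 and 1367 with the ethanol array in its place; control 2 and ethanol belong to the other array set. Quantile normalization over 11 arrays, which draws together 2 sets of unequal spread, left 13 higher and 0 lower, and over the 3 arrays of the smaller set (chosen after seeing the data) 81 and 21. At 1.5-fold the counts were 749 and 395, and at a log2 difference of 1.5 they were 31 and 0. The median of the estrogen-induced list, 0.63, became 0.36 with quantile normalization over 11 arrays, 0.48 with control 2, 0.49 with the mean of controls, 0.35 with ethanol and 0.47 with the median over probe sets. With control 2 in place RMST (−0.05), TEX14 (−0.39), RAPGEFL1 (−0.32), CITED1 (−0.05), FLRT3 (0.56) and DENR (0.20) reversed; with ethanol in place RMST (−0.14), TEX14 (−1.02), RAPGEFL1 (−0.18), FLRT3 (0.50) and DENR (0.13) did. With the median over a gene's probe sets RUNX2 became −0.02. The cause was not tested. Of 152 named genes 44 passed the fold, and 26 still did with control 2, 30 with the mean of controls, 25 with ethanol, 10 and 40 with the quantile settings (11 and 3 arrays) and 25 with the median over probe sets. The count of arrays limits every value.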
